A study of Bos taurus with 6 samples.

Results

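The genes of the facilitative glucose transporters SLC2A were examined in longissimus thoracis (LT) muscle of Korean cattle. The members were a list of 7 gene symbols, SLC2A1, SLC2A3, SLC2A4, SLC2A5, SLC2A8, SLC2A10 and SLC2A12, taken by name from the raw count of each steer. Of these 7 genes, 6 had a count row among 23015 rows in all, and 5 were among the 15039 rows that passed edgeR's filter on low counts and were tested. SLC2A10 was left out of the test by that filter, and SLC2A5, the fructose transporter of the gut, was not analysed here. The animals were Hanwoo steers, raised on commercial feed in the conventional way, with 1 library per steer. The high group (steers 3-8, 10-8 and 10-9, aged 32.5, 33.8 and 34.5 months) had a high number of fine marbling particles (NFMP), the small flecks of intramuscular fat counted by computer image analysis, and the low group (steers 3-1, 3-3 and 10-16, aged 37.8, 33.7 and 35.4 months) a low number. The steers came from a larger set of cattle sorted by this trait, and the low group held the 2 oldest of them. The libraries held between 16283873 and 17192750 counts assigned to genes.

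Glucose is polar and cannot cross a cell membrane unaided. The SLC2A genes encode the GLUT proteins, which let hexoses move down their concentration gradient without the use of energy. GLUT1 (SLC2A1) serves basal glucose uptake in many cells, red blood cells, endothelium and the sheath of peripheral nerves among them. GLUT3 (SLC2A3) is a high-affinity transporter of neurons and blood cells. GLUT4 (SLC2A4) is the insulin-responsive transporter of muscle fibres and adipocytes, held in vesicles inside the cell until insulin or contraction brings it to the surface. GLUT8 (SLC2A8) is mainly intracellular, GLUT10 (SLC2A10) is known from connective tissue of arteries, and GLUT12 (SLC2A12) is a further transporter of insulin-sensitive tissue. LT muscle of a fattened steer holds both muscle fibres and intramuscular adipocytes, and these libraries hold the RNA of both. In such bulk samples fewer cells of a type and less RNA per cell cannot be told apart.

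The tissue label was checked against marker genes. All 10 markers of skeletal muscle fibres were tested, and their summed level was between 101846 and 127292 CPM, the counts of a gene scaled to a library of fixed size, in the 6 steers. The 8 adipocyte markers summed to between 643 and 971 CPM, and no marker of any list was at 0 counts in all steers. Red blood cell markers summed to at most 4.04 CPM.

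Among the listed members SLC2A4 was the most abundant, followed by SLC2A3, SLC2A12, SLC2A8 and SLC2A1, with SLC2A10 near 0. Genes of the family outside the list are not in this order and are given below. On the scale of CPM of the normalized library, the level over the 6 steers was 46.6 ± 13.4 (SD, n = 6) for SLC2A4. It was 18.9 ± 5.75 CPM (SD, n = 6) for SLC2A3 and 8.86 ± 2.63 CPM (SD, n = 6) for SLC2A12. SLC2A8 was at 2.93 ± 1.41 CPM and SLC2A1 at 1.21 ± 0.75 CPM (SD, n = 6). In the ranking of all 15039 tested genes by level SLC2A4 was number 2382, SLC2A3 number 4874, SLC2A12 number 7395, SLC2A8 number 10913 and SLC2A1 number 13321. These levels are read counts and were not divided by transcript length. The 3′ mRNA method is meant to give reads from the 3′ end of each transcript alone, but whether transcript length moved these counts was not tested. TTN, one of the longest transcripts known, had a median of 990795 counts in a library and the short ACTA1 342681. The true numbers of TTN and ACTA1 transcripts are not known, so this pair does not show whether length moved the counts. The order of the transporters is an order of counts and may not be one of transcripts.

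The same order was found in each of the 6 steers. The pairs of neighbours were read from these same values, so no test of the order is given. The level of SLC2A4 exceeded that of SLC2A3 by 1.24 ± 0.48 (SD, n = 6) on the log2(CPM + 1) scale, and SLC2A3 exceeded SLC2A12 by 1.01 ± 0.63. The step from SLC2A12 to SLC2A8 was 1.36 ± 0.83 and that from SLC2A8 to SLC2A1 was 0.82 ± 0.43. Across steers, the range of SLC2A4 overlapped that of SLC2A3 and the range of SLC2A8 overlapped that of SLC2A1, so these neighbours were separated within each steer but not by any fixed level. The high-NFMP and the low-NFMP steers gave the same order when taken alone.

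**Figure D1:**
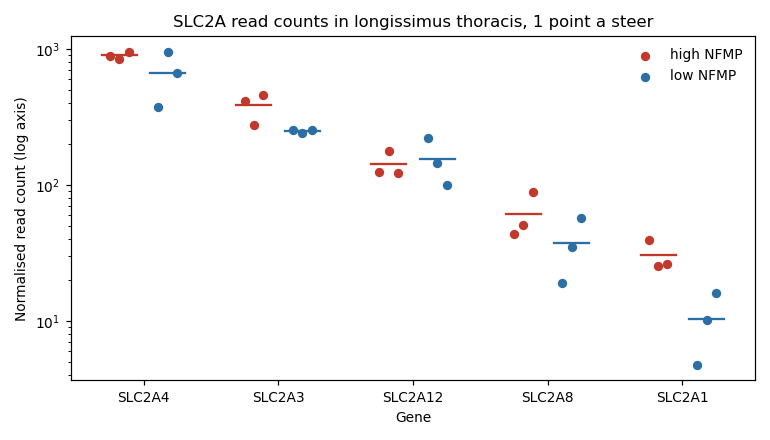
Normalised read count (log axis) of the 5 tested SLC2A genes, with 1 point per steer, high NFMP in red and low NFMP in blue, and a horizontal bar at each group mean. SLC2A4 lies between 376 and 956 and SLC2A1 between 4.78 and 39.5, and the red and blue points do not overlap for SLC2A3 and SLC2A1.

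SLC2A4 took 58.4% ± 8.62 (SD, n = 6) of the counts of the 6 measured transporters, SLC2A3 24.1% ± 4.76 and SLC2A12 12.2% ± 6.61. SLC2A8 took 3.66% ± 1.39 and SLC2A1 1.46% ± 0.75. Steer 3-1 of the low group had a different make-up from the other 5. In it SLC2A4 held 42.8% of the transporter counts against 57.7% to 68.9% in the other steers, and SLC2A12 held 25.1% against 7.45% to 12.98%. There were 1.70 counts of SLC2A4 for each count of SLC2A12 in steer 3-1 and between 4.74 and 7.75 in the other steers. Steer 3-1, at 37.8 months, was also the oldest.

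**Figure D2:**
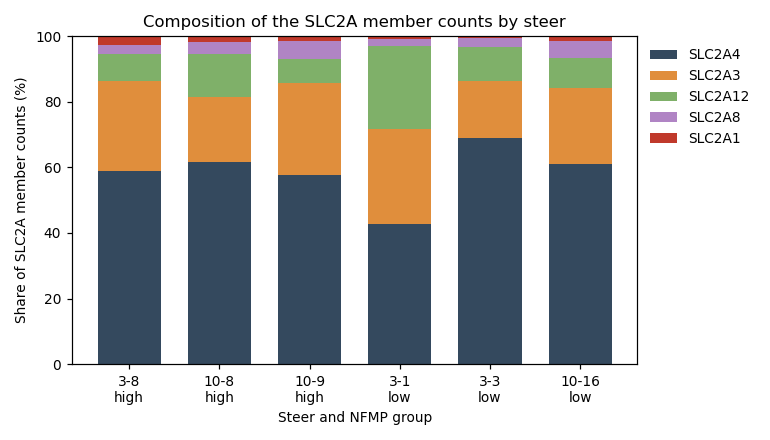
Stacked bars of the percentage of SLC2A transporter counts that fell on each gene, with 1 bar per steer (SLC2A10, present only in steer 3-1 at 0.44%, is not drawn). SLC2A4 is the largest part of each bar, and the bar of steer 3-1 has the smallest SLC2A4 part, 42.8%, and the largest SLC2A12 part, 25.1%.

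The high- and low-NFMP groups were then compared to ask whether transporter expression went with NFMP. The paper gives the high group a higher marbling score and a larger rib eye area as well. Fineness and these traits therefore cannot be told apart here. The test was edgeR's quasi-likelihood test on all 15039 genes, and the study's threshold was kept, a fold change above 2 at an unadjusted p below 0.05. At that threshold 1 of the 5 tested transporters, SLC2A1, was higher in the high-NFMP group and none was lower, where 2.53% of all tested genes were higher and 1.36% were lower. No transporter had a Benjamini-Hochberg adjusted p below 0.05, which 0.685% of all tested genes had. An unadjusted p below 0.05, whatever the fold change, was found for SLC2A1 and SLC2A3 and for 11.5% of all tested genes. The groups did not overlap in these 2 transporters, as in 17.1% of all tested genes. The summed normalized count of the transporters was 1518, 1378 and 1657 in the high-NFMP steers and 879, 1384 and 1094 in the low-NFMP steers, so that steer 3-3 of the low group reached the level of steer 10-8 of the high group.

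SLC2A1, the transporter of basal uptake, was the rarest of the tested members. Steers 3-8, 10-8 and 10-9 of the high group had 39, 23 and 26 counts, whereas steers 3-1, 3-3 and 10-16 of the low group had 5, 11 and 16. Steer 3-8 was the highest and steer 3-1 the lowest, and the groups did not overlap. The log2 fold change was 1.55 (95% interval 0.42 to 2.68), which is a 2.92-fold higher level, with an adjusted p of 0.258 by edgeR. Counting error alone is wide at this depth. The exact 95% Poisson interval was 1.62 to 11.7 counts for steer 3-1 and 9.15 to 25.98 for steer 10-16, and the latter overlapped the interval of 14.6 to 34.5 counts of steer 10-8 in the high group. SLC2A1 was no longer past the threshold without steer 3-8 (log2 fold change 1.31, adjusted p = 0.333 by edgeR) or when age entered the model (1.01, adjusted p = 0.705 by edgeR). With quantile normalization, the method the study names, the log2 fold change of SLC2A1 was 0.75 on the log2(CPM + 1) scale. It was likewise not past the threshold (adjusted p = 0.239 by limma), but on fold change alone, as its unadjusted p stayed below 0.05. The added 1 CPM lowers the fold change of so rare a gene, so this fit does not repeat that of the study. The paper itself reports SLC2A1 as up-regulated past its threshold. Among the 3 steers whose label begins with 3 the difference of mean log2(normalized count + 1) was 2.33, and among the 3 whose label begins with 10 it was 0.64.

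SLC2A3, the high-affinity transporter, differed less but was counted often. Its counts were 411, 247 and 461 in the high group and 266, 259 and 252 in the low group, in the same order of steers. After normalization these became 416, 274 and 462 against 255, 240 and 254, so that the low group was tightly spaced and steer 10-8 of the high group lay just above it. The log2 fold change was 0.62 (95% interval 0.15 to 1.10), a 1.54-fold higher level (adjusted p = 0.283 by edgeR), which did not reach the fold change of the threshold. The coefficient of variation between steers was 25.5% in the high group and 3.42% in the low group, and a count of this size carries a counting error of 5.18% and 6.21%. Without steer 10-9 the log2 fold change was 0.48 and its unadjusted p was no longer below 0.05 (adjusted p = 0.504 by edgeR).

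SLC2A4, the insulin-responsive transporter of muscle, did not pass the test. The high group had 882, 763 and 953 counts of it, against 393, 1031 and 660 in the low group. The 3 high-NFMP steers were close together, at 899 ± 54.1 normalized counts (SD, n = 3), whereas the low-NFMP steers were spread over 665 ± 289 (SD, n = 3). Steer 3-3 of the low group, at 954 normalized counts, matched the highest steer of the high group, at 956, and steer 3-1 had the lowest level, 376. The log2 fold change was 0.43 (95% interval -0.15 to 1.02, adjusted p = 0.575 by edgeR), so that a level from 0.901 to 2.03 times that of the low group lay within the interval. Its size depended on the low-NFMP steers. It was 0.15 without steer 3-1 and 0.78 without steer 3-3, where the unadjusted p fell below 0.05 (adjusted p = 0.36 by edgeR), and it was 0.03 when age entered the model.

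SLC2A8, the intracellular transporter, had 43, 46 and 89 counts in the high group and 20, 38 and 57 in the low group. Steer 10-9 was the highest and steer 3-1 the lowest, and steer 10-16 of the low group lay above steers 3-8 and 10-8 of the high group. The log2 fold change was 0.72 (95% interval -0.21 to 1.65, adjusted p = 0.558 by edgeR). Without steer 10-16 it was 1.21 and past the threshold (adjusted p = 0.427 by edgeR), and without steer 10-9 it was 0.36.

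**Figure D3:**
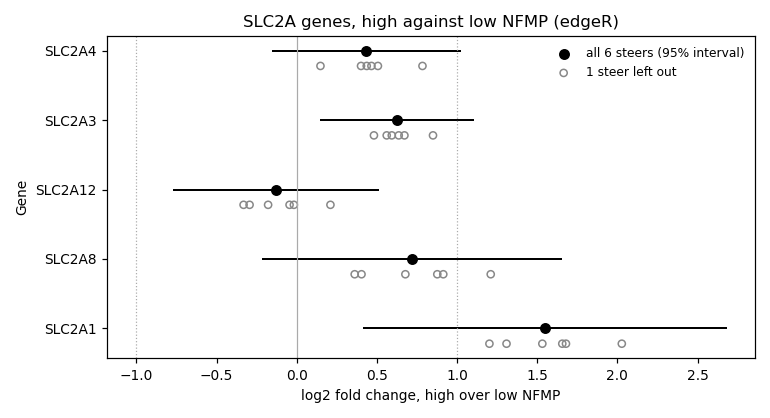
log2 fold change of high over low NFMP for the 5 tested SLC2A genes, with filled points and 95% intervals from all 6 steers, open points for the fits with 1 steer left out, and dotted lines at a fold change of 2. The intervals of SLC2A1 (0.42 to 2.68) and SLC2A3 (0.15 to 1.10) lie above 0, and the open points of SLC2A12 lie on both sides of it.

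SLC2A12, the further transporter of insulin-sensitive tissue, showed no difference that passed the test. Counts of 123, 161 and 123 in the high group stood against 231, 157 and 99 in the low group, and the low group held both the highest and the lowest steer. The log2 fold change was -0.13 (95% interval -0.76 to 0.51, adjusted p = 0.897 by edgeR), and it was 0.21 without steer 3-1. Among steers whose label begins with 3 the difference of mean log2(normalized count + 1) was -0.52, and among those whose label begins with 10 it was 0.57.

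The gene TBPL1, which encodes a relative of the TATA-binding protein, overlaps SLC2A12 in RefSeq's annotation of assembly ARS-UCD2.0. TBPL1 had 115, 120 and 98 counts in the high group and 222, 147 and 92 in the low group. It had between 74.5 and 96.1 counts for every 100 counts of SLC2A12, and both genes had their highest count in steer 3-1 and their lowest in steer 10-16. How many reads were counted on both genes was not tested, so the level of SLC2A12 and its place in the order are uncertain. The RefSeq table places YBX2, which encodes a germ cell protein that binds nucleic acids, beside SLC2A4 without overlap. YBX2 had between 22.8 and 54.7 counts for every 100 of SLC2A4, and its log2 fold change was 0.03 (adjusted p = 0.98 by edgeR). GARNL3 lies beside SLC2A8 without overlap and had between 19.6 and 165 counts for every 100 of SLC2A8. In steer 3-1, where SLC2A8 was lowest, GARNL3 had 33 counts beside 20, and in the other steers it had fewer counts than SLC2A8. No other tested transporter had an overlapping gene in that table.

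**Figure D4:**
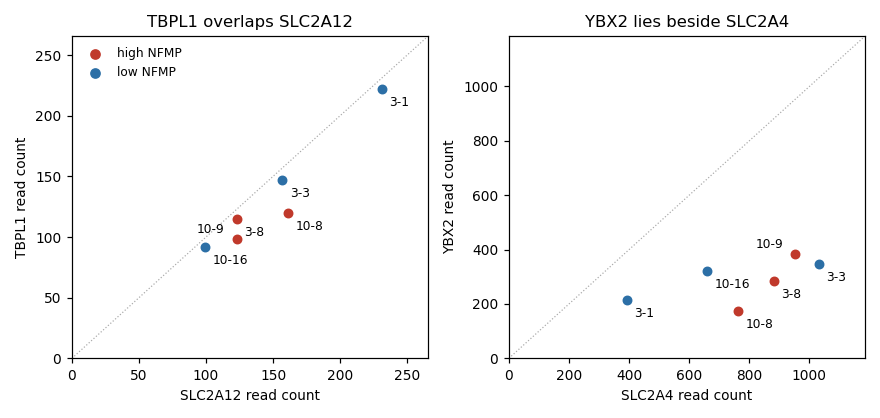
Raw read counts of a transporter (horizontal axis) and of the gene that overlaps or lies beside it (vertical axis), with 1 labelled point per steer, high NFMP in red and low NFMP in blue, and a dotted line where both counts are equal. The points of TBPL1 and SLC2A12 lie below the line, close to it in 4 of the 6 steers, at 222 and 231 counts in steer 3-1, whereas those of YBX2 and SLC2A4 lie far below it.

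SLC2A10, the transporter known from arterial connective tissue, was counted 4 times in steer 3-1 and not at all in the other 5 steers. A count of 0 allows a level of up to 0.165 to 0.198 CPM in these libraries (a limit of 3 counts, counting error only), and the exact two-sided 95% Poisson interval used above for SLC2A1 would reach 3.69 counts. No fold change is given at this depth.

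The markers of other cells were set beside these values. The adipocyte markers summed to between 758 and 971 CPM in the high-NFMP steers and between 643 and 670 CPM in the low-NFMP steers, without overlap. All 8 had a positive log2 fold change, with a median of 0.58, and although none passed the threshold, 4 of the 8 had an unadjusted p below 0.05, where 11.5% of all tested genes had one. The separation of the sums rested on GPD1, a gene that muscle fibres also express. Without GPD1 the sums were 711, 404 and 302 CPM in steers 3-8, 10-8 and 10-9 and 307, 353 and 281 CPM in steers 3-1, 3-3 and 10-16, so that the groups overlapped and steer 3-8 stood highest. The groups did not overlap for ADIPOQ, CIDEC and LIPE, each higher in the high group, whereas FABP4 and LEP were lower in steer 10-9 than in any steer of the low group. LEP was lower than in all of the low group in steer 10-8 too, at 47.8 normalized counts, and stood at 194 in steer 3-8. The 6 peripheral nerve markers summed to 80.2 to 115 CPM in the high group and 55.8 to 86.2 CPM in the low group, and the 4 tested ones had a median log2 fold change of 0.54. The median of all tested genes was 0.02. The endothelial markers summed to 78.5 to 114 CPM against 74.5 to 96.8 CPM, the leukocyte and macrophage markers to 24.8 to 40.1 CPM against 23.6 to 41.0 CPM, and the fibroblast markers to 704 to 876 CPM against 544 to 716 CPM. Among the 8 endothelial markers CLDN5, a tight junction gene, had 140, 98 and 121 counts in the high group and 61, 101 and 43 in the low group. After normalization its groups did not overlap, and its log2 fold change was 0.93 with an unadjusted p below 0.05 (adjusted p = 0.255 by edgeR), while the median of the list was 0.01. CDH5 also had groups that did not overlap but was lower in the high group (log2 fold change -0.16, adjusted p = 0.813 by edgeR). Of the 8 endothelial markers 4 had a positive and 4 a negative log2 fold change. In the nerve list the myelin gene MBP was at 0.76, also with an unadjusted p below 0.05 (adjusted p = 0.251 by edgeR), and its groups overlapped. Of the 5 fibroblast markers PDGFRA went against the sum, with a log2 fold change of -0.51, an unadjusted p below 0.05 (adjusted p = 0.408 by edgeR) and groups that did not overlap. Single leukocyte and macrophage markers went different ways. ITGAM, an integrin gene of myeloid cells, was past the threshold and lower in the high group, at 22, 10 and 12 counts against 44, 32 and 25 (log2 fold change -1.08, adjusted p = 0.404 by edgeR). CD14 and CSF1R had log2 fold changes of 0.57 and 0.73 and groups that did not overlap, without passing the threshold. The red blood cell markers were at 1.79 to 4.04 CPM against 2.28 to 3.31 CPM. Adipocytes express SLC2A4 and SLC2A1, and nerve sheath and endothelium express SLC2A1, and the part of any of these cells in the transporter differences was not tested.

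Of the other 6 SLC2A family genes that were looked up, SLC2A13 and SLC2A9 were tested. SLC2A13, which encodes a proton-coupled myo-inositol transporter, was at 201 ± 82.7 normalized counts in the high group and 216 ± 17.7 in the low group (SD, n = 3), and its log2 fold change was -0.11 (adjusted p = 0.904 by edgeR). SLC2A9, a urate transporter, was at 62.9 ± 31.5 against 44.0 ± 15.2 (SD, n = 3), with a log2 fold change of 0.52 (adjusted p = 0.67 by edgeR). SLC2A2, SLC2A6 and SLC2A11 had group means of at most 4.57 normalized counts. Among the sodium-coupled glucose transporters, which pull glucose in along with sodium, SLC5A2 and SLC5A10 were tested, and neither passed the threshold. SLC5A1 had a median of 0.50 counts in a library.

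Once inside a fibre, glucose is trapped by hexokinase. HK2, the hexokinase typical of insulin-sensitive tissue, was at 1037 ± 191 normalized counts in the high group and 833 ± 102 in the low group (SD, n = 3), with a log2 fold change of 0.32 (adjusted p = 0.564 by edgeR). None of the 4 tested genes of hexokinases and glucose trapping passed the threshold, and their median log2 fold change was -0.23.

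The pathway that brings GLUT4 to the surface was read in a list of 14 genes of the insulin signal, all of them tested. The insulin receptor gene INSR had 1910, 1595 and 2128 counts in the high group and 1042, 1003 and 1152 in the low group, so that the groups lay well apart. The log2 fold change of INSR was 0.92 (SE 0.18, adjusted p = 0.0301 by edgeR), just under the fold change of the threshold. IRS2, which encodes the adaptor that carries the signal on, had 516, 611 and 890 counts against 355, 299 and 390, again without overlap. IRS2 was past the threshold at a log2 fold change of 1.05 (SE 0.23, adjusted p = 0.0495 by edgeR). Whichever of the 6 steers was left out, the adjusted p of INSR and of IRS2 rose above 0.05. In these fits INSR kept a log2 fold change of 0.85 to 1.05, and it was past the fold change of the threshold without steer 10-8 (1.02) or 10-16 (1.05). For IRS2 the log2 fold change also fell below the 2-fold threshold without steer 10-9 (0.85) or 3-3 (0.93), with library totals alone (0.99), and when the number that opens the steer label entered the model (0.88, adjusted p = 0.103 by edgeR). The adjusted p of IRS2 was above 0.05 as well with RLE scaling (0.0517), quantile normalization (0.0779) and age in the model (0.103). Its log2 fold changes there were 1.06, 1.02 and 1.29, each past the threshold of unadjusted p and fold change. The adjusted p of INSR was above 0.05 with age in the model (0.205) and with library totals alone (0.0507), at log2 fold changes of 0.97 and 0.86. The kinase subunit genes PIK3CA and PIK3R1 had log2 fold changes of -0.43 and -0.41, each with an unadjusted p below 0.05 and an adjusted p of 0.422 and 0.413 by edgeR. Neither kept that unadjusted p when age or the label number entered the model, or without steer 10-8 or 10-16, and PIK3CA also lost it without steer 3-1 and with quantile normalization, and PIK3R1 without steer 3-3. Without steer 10-8 their log2 fold changes were -0.26 and -0.27. With age in the model they were -0.33 for PIK3CA and -0.51 for PIK3R1, and with the label number -0.39 and -0.40. AKT2 and TBC1D4, the kinase and the GTPase-activating protein next in line, were at log2 fold changes of 0.39 and -0.12 (adjusted p = 0.571 and adjusted p = 0.832 by edgeR). The median over the 14 genes was -0.03.

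In the list of GLUT4 vesicle sorting and fusion 20 of 21 genes were tested, and none passed the threshold. An unadjusted p below 0.05 was found for 4 of the 20, against 11.5% of all tested genes, and these 4 were named after their values were seen. LNPEP, the aminopeptidase that travels in the GLUT4 vesicles, was at 712 ± 57.0 normalized counts against 1060 ± 79.4 (SD, n = 3), and its log2 fold change was -0.57 (adjusted p = 0.204 by edgeR). STXBP3, whose protein binds the syntaxin of the fusion machinery, had a log2 fold change of -0.96 (adjusted p = 0.242 by edgeR), and of -0.54 without steer 3-3, where the unadjusted p was above 0.05. It was past the threshold in 5 of 14 alternatives, with library totals alone (-1.04), with age in the model (-1.32) and without steer 3-8 (-1.01), 3-1 (-1.15) or 10-16 (-1.08). RAB10, a GTPase of the vesicles, was at a log2 fold change of -0.42 (adjusted p = 0.38 by edgeR), and its unadjusted p was above 0.05 without steer 10-8, 10-9, 3-3 or 10-16. TRARG1, which encodes a partner of GLUT4 trafficking, was at a log2 fold change of 0.81 (adjusted p = 0.261 by edgeR) and at 0.47 without steer 3-8, and its unadjusted p was above 0.05 there and when age entered the model. Without steer 10-9 TRARG1 was at 1.10 and past both thresholds (adjusted p = 0.0492 by edgeR).

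Of the 13 listed regulators of SLC2A expression and surface level 12 were tested and none passed the threshold. The genes of the MEF2 factors, which bind the SLC2A4 promoter, had log2 fold changes of -0.29 (MEF2A), -0.03 (MEF2C) and -0.21 (MEF2D). PPARGC1A, a coactivator of oxidative metabolism, was at 4009 ± 1136 normalized counts against 2115 ± 637 (SD, n = 3), with a log2 fold change of 0.92 (adjusted p = 0.145 by edgeR). PPARGC1A was past the threshold with age in the model (1.36) and without steer 3-8 (1.12) or 3-1 (1.20), and its adjusted p was below 0.05 with DESeq2 (0.0294) and with no filter (0.0439). TXNIP, whose protein promotes the uptake of GLUT1 and GLUT4 from the surface, was at 7945 ± 2691 against 12011 ± 1345 (SD, n = 3), and its log2 fold change was -0.60 (adjusted p = 0.349 by edgeR). Its unadjusted p rose above 0.05 without steer 3-8 (-0.59), 10-9 (-0.36) or 3-3 (-0.50). INSR and IRS2 were named because they passed a threshold in these same data, and the other genes of these lists were picked after their values were seen. Over the 54 tested genes of all these lists, 4 were higher and 6 were lower at an unadjusted p below 0.05. These 10 genes were 18.5% of the 54, where 11.5% of all tested genes had such a p. The median log2 fold change of the 54 was -0.01.

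**Figure D5:**
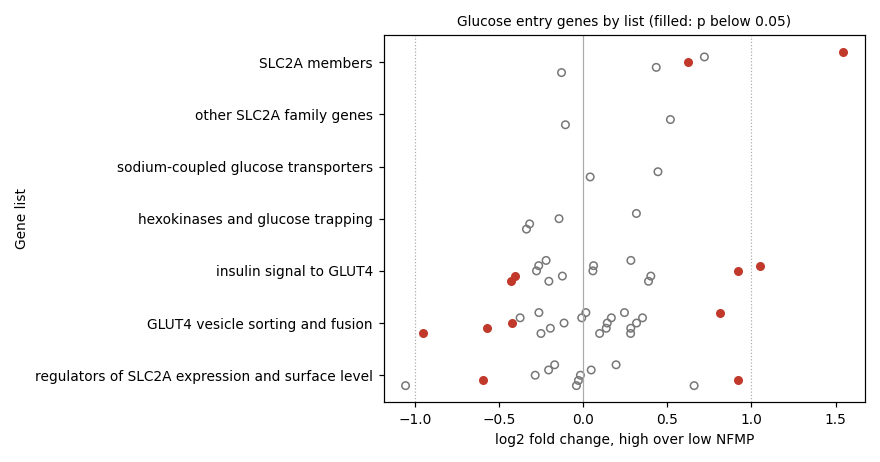
log2 fold change of high over low NFMP for each tested gene of the 7 lists, with filled points for genes at an unadjusted p below 0.05 by edgeR and dotted lines at a fold change of 2. Most points lie between the dotted lines, and SLC2A1 (1.55) and IRS2 (1.05) are the filled points beyond them.

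The genes whose level over the 6 steers was most like that of SLC2A1 and SLC2A4 were looked up among tested genes with at least 100 counts on average. For SLC2A1 these were FAM217B (Pearson r = 0.98), ARHGEF17 (r = 0.98) and ERP29 (r = 0.98), of 8732 genes compared. For SLC2A4 they were TRIM55 (r = 0.98), whose protein belongs to the sarcomere, LOC112449262 (r = 0.97) and OSR2 (r = 0.97), of 8731 genes compared. A correlation of at least 0.9 was reached by 85 genes for SLC2A1 and by 56 genes for SLC2A4. These points share 6 libraries in 2 groups, and the values are descriptions only.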

How the data were processed

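The authors prepared 3′ mRNA libraries from LT muscle of 6 steers (SENSE in the methods, Quant-Seq in the labels). The deposited values are raw counts of reads for each gene. The text names both Tophat2 and Bowtie2, with unique and multiple alignments, and the labels name Bowtie2 and bedtools. Whether strand was used is not stated. The build named is UMD3.1, and no coordinates are given, because the gene table is of ARS-UCD2.0.

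The test was edgeR 4.0.16 in R 4.3.3 (minimum count 10, minimum total 15, TMM, robust dispersions, quasi-likelihood, Benjamini-Hochberg over 15039 rows), and the fit was tested on simulated data. Normalized counts are scaled to the mean effective library. An exact permutation test of these groups has a smallest p of 0.1. Intervals from Poisson counts and limits from a count of 0 cover counting error only. The transporters and gene lists were chosen with earlier results of these data known. The naming rule took the transporters, genes of the glucose entry lists past either threshold (adjusted p below 0.05, or the p with fold change) and the 3 genes most like SLC2A1 and SLC2A4. Any other gene was picked for the text with its values in view. Alternatives were 2 filters, RLE scaling, no TMM factors, DESeq2 1.42.0, quantile-normalized log2(CPM + 1) with limma 3.58.1 (its variance trend was set after a first result was seen), terms for age or for the number that opens the steer label, whose meaning is not stated, and leaving out single steers.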

Additional observations from a re-analysis of the deposited data

How the results depend on the processing

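The log2 fold changes of SLC2A3 and SLC2A4 kept their direction and their side of the p and fold change threshold in all 14 alternatives. SLC2A1 was not tested with at least 10 counts in every library, since steer 3-1 had 5, so no transporter (0) passed then. With quantile normalization SLC2A1 was at 0.75, a scale on which the added 1 CPM lowers the fold change of so rare a gene, and with age as a term at 1.01, and the number of transporters past the threshold was 0 in both. Leaving out each steer gave 1.20 to 2.03 for SLC2A1, 0.36 to 1.21 for SLC2A8, -0.33 to 0.21 for SLC2A12 and 0 to 2 transporters past the threshold. SLC2A12 turned to 0.012 with the label number as a term and to 0.20 with age as a term, for which the cause was not tested. Over all genes, 969 passed the threshold with no filter, 364 with 10 counts in every library and 227 with quantile normalization, against 586. The number at an adjusted p below 0.05 was 240 with no filter, 291 with DESeq2, 31 with age as a term and 28 to 82 with each steer left out (33 without 3-8, 41 without 10-8, 28 without 3-3, 63 without 10-16), against 103. The share of higher genes among those past the threshold was 65.0%, and it was 49.2% without steer 3-8 and 56.0% without TMM factors. The order per kilobase was not run, for want of transcript lengths, and SLC2A10 had too few counts for a fold change. No paired analysis was made because each library came from a different steer, and the number that opens the steer label was used as a term instead. The alternatives for INSR, IRS2 and the other 8 list genes at an unadjusted p below 0.05 were added after seeing the data, as was the adipocyte sum without GPD1. None of these genes reversed, but INSR lost its adjusted p below 0.05 in 8 of 14 alternatives and IRS2 in 11 of 14. Depth limits SLC2A10, which could not be tested, and SLC2A1, with 5 to 39 counts per steer.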
